A study of Mus musculus with 4 samples.

Results

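Proteasome subunits and assembly factors were taken as the gene entries whose symbol begins with Psma, Psmb, Psmc, Psmd, Psme, Psmf or Psmg and a number, leaving out pseudogenes named with "-ps". There were 50 such genes among 47937 gene entries of the count table. They comprised 8 α-type core subunits, 7 constitutive β-type core subunits, 4 immunoproteasome and thymoproteasome β-type subunits, 6 ATPases and 3 other subunits of the base, 8 lid subunits, 6 genes of activators and an inhibitor, and 7 assembly factors. The remaining gene, Psmc3ip, encodes a meiotic recombination factor that carries the symbol because it binds Psmc3, and it is not a proteasome component.

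Total RNA was sequenced from mouse embryonic fibroblasts (MEF cells), which are connective tissue cells cultured from embryos. Wild-type, untreated cells and cells exposed to 50 µM genistein, a plant isoflavone, for 24 h gave 2 libraries each. Control plates in the study's methods received the DMSO vehicle alone. The labels give "MEF" as the cell line and do not state whether the libraries of a group came from separate cultures, so p-values measure the spread between these libraries, which may be technical. The libraries held 28591958 to 31464284 counts over genes and repeats. Among 10 fibroblast markers the summed normalized count lay between 408903 and 439977 in every library, while Thy1 was at 0 in all 4 libraries and Lum had at most 10 counts. Of the 8 fibroblast markers tested 6 fell, among them Pdgfrb (log2 fold change -0.73) and Col1a2 (-0.50), and Fn1 (0.20) and Dcn (1.08) rose. Of the markers of other cell types, Adgre1, Cd3e, Epcam, Krt5 and Dazl were at 0 in every library, Ptprc had at most 1 count, and the summed normalized count of 6 immune markers was 66.7 and 84.9 in untreated and 216 and 218 in genistein libraries, nearly all of it Cd68. The summed count of 4 epithelial markers, nearly all Krt14, was 672 and 718 in untreated and 108 and 118 in genistein libraries. Kdr of endothelium (1.98), Ccl25 of thymic epithelium (0.57) and Ddx4 of germ cells (-0.97) also changed on the log2 scale. The part of these markers in the results was not tested.

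The proteasome is the protease that degrades proteins tagged with ubiquitin. Its barrel-shaped core is built from rings of α subunits, which form the gate, and rings of β subunits, some of which cut peptide bonds, and it is capped by a regulatory particle whose base unfolds the substrate and whose lid removes the ubiquitin chain. Immune cells and interferon-treated cells replace the catalytic β subunits by immunoproteasome subunits, other activators can take the place of the regulatory particle, and dedicated chaperones assemble the complex. Transcription of the subunit genes is known to be coordinated by Nfe2l1 (also called Nrf1), which acts through antioxidant response elements in their promoters.

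With genistein, transcripts of nearly every expressed proteasome gene were less abundant. Of the 50 genes, 46 passed the filter on low counts and were tested. They include Psmc3ip, which also fell and is no proteasome component. Of these 46, 42 fell, 0 rose and 4 did not pass the threshold at an adjusted p-value under 0.05 (quasi-likelihood test of edgeR, adjusted by Benjamini-Hochberg across genes and repeats). Over all 16240 genes tested, 38.2% fell and 33.5% rose. No member was higher at an unadjusted p under 0.05 (0 genes) or in DESeq2 (0 genes). The median log2 fold change of the 46 genes was -0.62, with a range of -1.02 to 0.06, against a median of -0.03 over all genes tested. Since 37 of the genes had a mean normalized count above 1000, they were also set beside the genes of that abundance, of which 56.1% fell and 29.8% rose with a median of -0.18. Both genistein libraries lay below both untreated libraries for 44 of the 46 genes, against 44.6% of all genes, and both lay above for Psme2 alone, against 40.7% of all genes. Under the study's stricter thresholds, an absolute log2 fold change above 1 and a mean count above 100, 3 members fell (Psmd12, Psmd7 and Psme3) and 0 rose, against 4.16% and 3.92% of all genes. These 3 lie at the limit. With library totals or with factors from gene rows 0 members passed it, without untreated 1 only Psme3, without genistein 2 only Psmd12, without genistein 1 Psmd7 and Psme3, and without untreated 2 these 3 and Psma5.

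**Figure D1:**
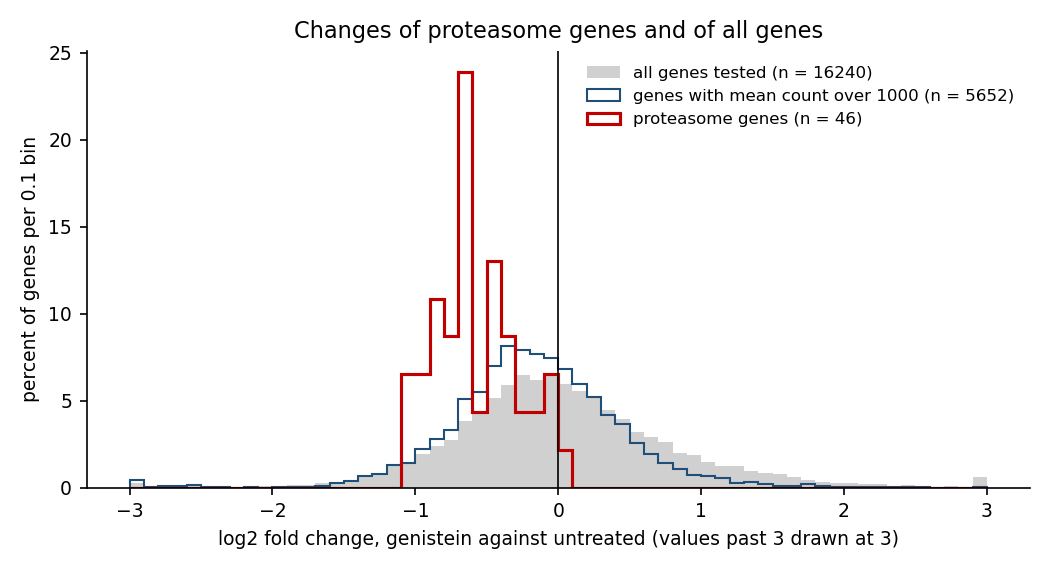
Distribution of log2 fold changes (genistein against untreated, x axis) as the percent of genes in each bin (y axis), for all genes tested (grey), genes with a mean normalized count above 1000 (blue line) and the 46 tested proteasome genes, counting Psmc3ip (red line). The proteasome genes lie between -1.02 and 0.06, in the lower part of the distribution and within its range.

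The summed counts of the 50 genes made up 0.5134% and 0.5003% of the untreated libraries and 0.348% and 0.359% of the genistein libraries. The summed normalized count of the constitutive core, base and lid was 136174 and 131853 in untreated and 86026 and 86797 in genistein libraries, and its mean fell by 35.5%. These values are shares of a library of bulk RNA, in which fewer cells that express a gene and less of its RNA per cell cannot be told apart.

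The promoters were examined for sequences of the pathways known to act on these genes. RefSeq promoter sequences on GRCm38.p6 matched 42 of the 50 genes, and the 250 bases upstream of each start were searched on both strands. The core of the antioxidant response element, TGACNNNGC, was found in 5 of the 42 genes, 11.9%, against 11.5% of all 27025 genes with a promoter sequence. Among tested genes with a promoter sequence it was found in 5 of 39 members, 12.8%, against 13.84% of genes. Its matches are shown because this is the element through which Nfe2l1 acts, with the motif in capitals and each sequence read 5′ to 3′ on the strand of its gene.
Psmb5 (chr14:54618014-54618062, minus strand): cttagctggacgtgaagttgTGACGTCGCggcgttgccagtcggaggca
Psmb6 (chr11:70525328-70525356, plus strand): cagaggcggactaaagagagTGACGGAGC
Psmd9 (chr5:123228139-123228187, plus strand): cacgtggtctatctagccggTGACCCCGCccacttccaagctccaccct
Psmd12 (chr11:107479278-107479309, plus strand): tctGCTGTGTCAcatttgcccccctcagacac
Psmc6 (chr14:45329577-45329625, plus strand): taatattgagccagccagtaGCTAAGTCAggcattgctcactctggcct
In Psmd12 and Psmc6 the motif lies on the opposite strand, so its reverse complement is in capitals. The windows of Psmb6, Psmd12 and Psmc6 lie upstream of the annotated gene, that of Psmb5 overlaps its first exon by 9 bases, and that of Psmd9 lies within the annotated gene but in no exon. The log2 fold changes of the 5 genes were -0.67, -0.41, -0.52, -1.005 and -0.50 in the order shown, a median of -0.52 against -0.62 for the 34 other tested members with a promoter sequence.

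The binding core of ETS factors, CCGGAAG, was present in 13 of the 42 genes, 30.95%, against 7.83% of all genes with a promoter sequence. Among tested genes it was present in 13 of 39 members, 33.3%, against 15.98% of the 10022 genes with a promoter sequence. Psmc3ip is among the 13. This motif was added after the other motifs had been counted, and the shares are a description without a test. The windows below, all outside annotated exons, are shown because they span members with large and small changes. In Psmd2 and Psmd11 the motif lies on the opposite strand and its reverse complement is in capitals.
Psme3 (chr11:101316086-101316132, plus strand): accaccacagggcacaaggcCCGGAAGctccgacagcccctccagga
Psmg1 (chr16:95991003-95991049, minus strand): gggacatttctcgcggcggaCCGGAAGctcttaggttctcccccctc
Psmd2 (chr16:20651606-20651651, plus strand): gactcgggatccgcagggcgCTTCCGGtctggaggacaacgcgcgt
Psmd11 (chr11:80428584-80428614, plus strand): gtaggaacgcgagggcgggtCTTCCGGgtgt
The log2 fold changes of these genes were -1.02, -0.82, -0.61 and -0.26. Tested members with the motif had a median of -0.69 (n = 13) and those without it a median of -0.59 (n = 26). The CCAAT box was found in 35.7% of the members and 37.5% of all genes, and the core of the interferon gamma-activated site, TTCNNNGAA, in 4.76% and 8.13%. The interferon-stimulated response element core was found in 7.14% of the members (Psmb3, Psmd4 and Psmd9) and in 3.46% of all genes. Among tested members and tested genes the shares were 33.3% and 40.85% for the CCAAT box and 2.56% and 7.05% for TTCNNNGAA. For the interferon-stimulated response element core they were 7.69% and 2.98%.

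The α subunits of the core, which form its outer rings and gate, fell in 7 of 7 tested genes with a median log2 fold change of -0.65. Of all genes 38.2% fell, and of those with a mean count above 1000, 56.1%. The normalized count of Psma5 was 1768 and 1617 in untreated and 883 and 866 in genistein libraries. The genistein libraries lay far below the untreated libraries, and the log2 fold change was -0.95 ± 0.05 (SE, edgeR adjusted p = 1.5e-10). Psma6 had counts of 3287 and 3158 against 1956 and 1939, a log2 fold change of -0.73 ± 0.04 (edgeR adjusted p = 4.9e-11). Psma5 has copies Gm8394 and Gm12989 (897 and 943, and 431 and 426, in untreated libraries), and with them added its log2 fold change was -0.95. The log2 fold changes of Psma7, Psma2 and Psma1 were -0.65, -0.63 and -0.61, and the smallest change among the α subunits was that of Psma4, -0.49. Psma3 (log2 fold change -0.72) shares sequence with Gm13835, a processed pseudogene identical over 685 bases, which was given normalized counts of 3287, 3142, 1671 and 1657 in untreated 1, untreated 2, genistein 1 and genistein 2. These exceed the counts of Psma3 itself, 1581, 1449, 929 and 908. How the reads were split between the pair cannot be told from the table, and the log2 fold change of Psma3 was -0.87 when the counts of all its similar copies were added, a check introduced once the values were known. Psma8, the testis form of an α subunit, had 0 counts in all 4 libraries, which allows up to 3 counts in each.

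The 7 constitutive β subunits also fell, with a median of -0.49 and a range of -0.67 to -0.31. Beside them stand 38.2% of all genes and 56.1% of those with a mean count above 1000. The catalytic subunits are Psmb5, Psmb6 and Psmb7, which carry the chymotrypsin-like, caspase-like and trypsin-like activities. The normalized count of Psmb5 was 1536 and 1458 in untreated and 946 and 939 in genistein libraries (log2 fold change -0.67 ± 0.05, SE, edgeR adjusted p = 5.4e-09). Psmb7 had 5777 and 5603 against 3754 and 3731 (-0.60 ± 0.03, edgeR adjusted p = 7.0e-11). Psmb6 had 4315 and 4159 against 3152 and 3227 (-0.41 ± 0.04, edgeR adjusted p = 2.2e-08). In all 3 both genistein libraries lay below both untreated libraries, as in 44.6% of all genes. Exons of Psmb7 overlap those of Nek6 on the opposite strand over 11.8% of their length, and those of Psmb5 contain Mir686 over 12.1%. Psmb5 also has a copy, Gm3375 (771 and 714 in untreated libraries), and with its copies added its log2 fold change was -0.64. The structural subunits Psmb3, Psmb2 and Psmb4 had log2 fold changes of -0.56, -0.49 and -0.36. Psmb1, another β subunit without proteolytic activity, changed least in this class, from 5547 and 5448 to 4415 and 4475 (-0.31 ± 0.03, edgeR adjusted p = 2.1e-07).

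Of the immunoproteasome and thymoproteasome β subunits, Psmb8, Psmb9 and Psmb11 were scarce in these cells and Psmb10 was not. Its levels were 18.04 FPKM in untreated and 15.15 FPKM in genistein cells (a count scaled by exon length and library size). Psmb10, the immunoproteasome counterpart of Psmb7, was the member of this class that could be tested, with normalized counts of 931 and 909 in untreated and 754 and 792 in genistein libraries. The groups did not overlap, with genistein below untreated as in 44.6% of all genes. Psmb10 fell by 0.25 on the log2 scale (SE 0.06, edgeR adjusted p = 8.6e-04). Per kilobase of exon, Psmb10 stood at 32.3% and 32.6% of Psmb7 in the untreated libraries and at 40.3% and 42.6% in the genistein libraries. The mean log2 ratio was 0.35 higher with genistein, and both genistein libraries lay above both untreated libraries (exact two-sided permutation p = 0.333, the smallest that 2 against 2 libraries allow). Psmb9, the counterpart of Psmb6, had raw counts of 7 and 6 in untreated and 15 and 9 in genistein libraries. Without the filter it changed by 0.77 ± 0.49 (SE, edgeR adjusted p = 0.21) on the log2 scale, so no difference was detectable at this depth. The log2 ratio of Psmb9 to Psmb6 differed by 1.17 between the group means, from these few counts (exact two-sided permutation p = 0.333). Psmb8, the counterpart of Psmb5, had raw counts of 0 and 2 in untreated and 2 and 0 in genistein libraries. The thymus-specific Psmb11 had 1 count, in the second genistein library.

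**Figure D2:**
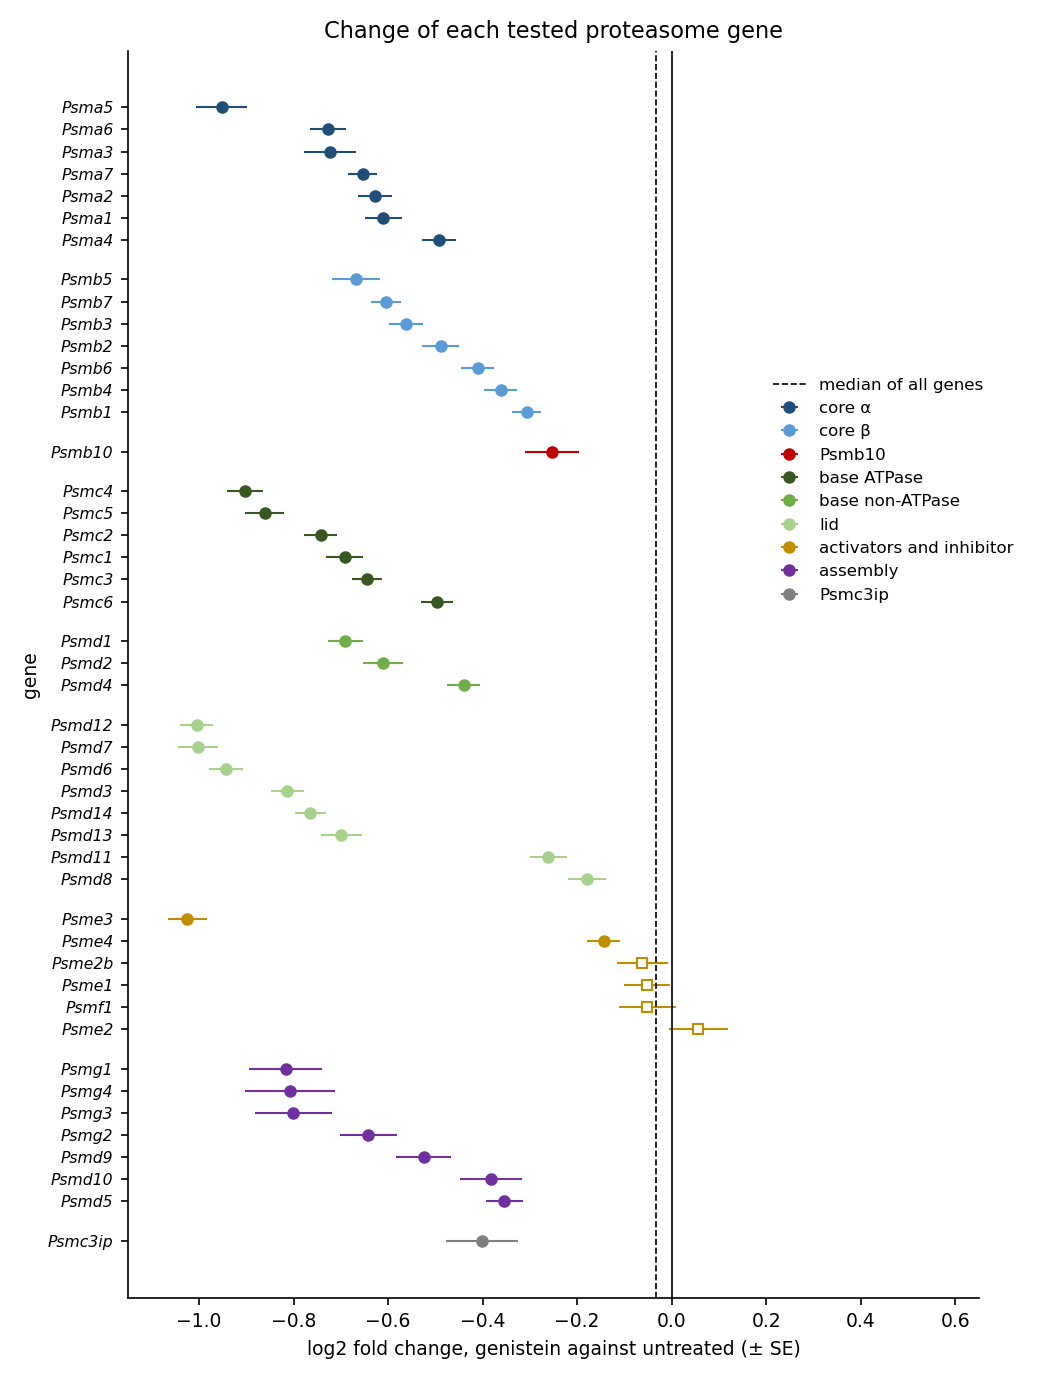
Log2 fold change (x axis, with its standard error as bars) of each of the 46 tested genes, grouped by role. Filled circles mark genes that fell and open squares genes that did not pass the threshold, the dashed line is the median of all genes (-0.03), and the open squares are Psme2b, Psme1, Psmf1 and Psme2.

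The regulatory particle fell in all of its 17 genes, beside 38.2% of all genes and 56.1% of those with a mean count above 1000. Among the 6 ATPases of the base, which unfold the substrate and open the gate, the median was -0.72. Psmc4 had normalized counts of 3325 and 3211 in untreated and 1763 and 1731 in genistein libraries (log2 fold change -0.90 ± 0.04, SE, edgeR adjusted p = 4.0e-12), and Psmc5 had 3480 and 3341 against 1820 and 1937 (-0.86 ± 0.04, edgeR adjusted p = 1.6e-11). Psmc2, Psmc1 and Psmc3 had log2 fold changes of -0.74, -0.69 and -0.64. Psmc6 had the smallest change among the ATPases, -0.50. Of the scaffold subunits of the base, Psmd1 had 8779 and 8628 against 5324 and 5465 (-0.69 ± 0.04, edgeR adjusted p = 5.7e-11), and Psmd2, the member with the highest counts, had 10381 and 9872 against 6498 and 6763 (-0.61 ± 0.04, edgeR adjusted p = 2.0e-09). Psmd4, a ubiquitin receptor, went from 3338 and 3273 to 2413 and 2462 (-0.44 ± 0.04, edgeR adjusted p = 1.2e-08).

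The lid held the widest spread among the classes of the core and regulatory particle. Psmd12 (chr11:107479484-107504362), a scaffold subunit, had normalized counts of 4451 and 4344 in untreated and 2175 and 2208 in genistein libraries (log2 fold change -1.005 ± 0.04, SE, edgeR adjusted p = 4.4e-13). Psmd7 (chr8:107580381-107588464), the partner of the deubiquitinase subunit, had 5921 and 5537 against 2984 and 2735 (-1.002 ± 0.04, edgeR adjusted p = 4.7e-12). In both genes the groups lay far apart in comparison with the gap between replicates. Psmd14, the deubiquitinase that removes the chain, went from 5246 and 5183 to 3029 and 3114 (-0.76 ± 0.03, edgeR adjusted p = 5.8e-12). Psmd6, Psmd3 and Psmd13 had log2 fold changes of -0.94, -0.81 and -0.70. At the other end, Psmd8 had 2770 and 2607 against 2375 and 2376 (-0.18 ± 0.04, edgeR adjusted p = 7.2e-04) and Psmd11 had a log2 fold change of -0.26 ± 0.04. Psmd11 has a similar copy, A730017L22Rik (97.9% identical over 1501 bases), that was higher with genistein, with normalized counts of 86.9 and 66.7 against 189 and 169, but these are few beside the 2579 and 2576 of Psmd11 in untreated libraries. A more abundant copy, Gm14048, fell (668 and 647 against 475 and 460, log2 fold change -0.49), and with all its copies added Psmd11 had a log2 fold change of -0.24.

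**Figure D3:**
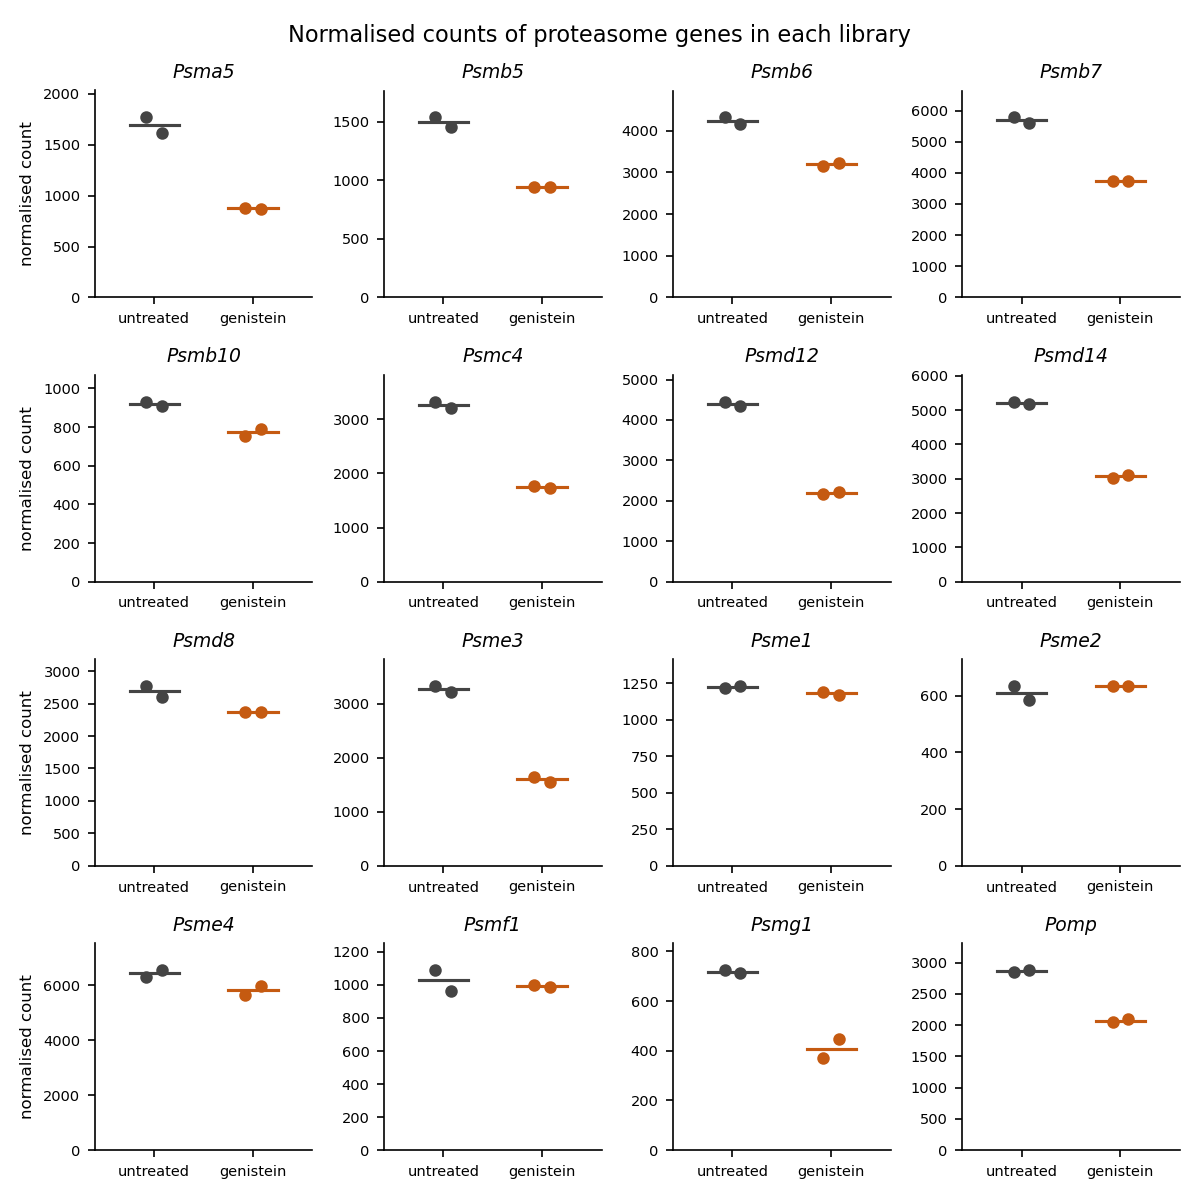
Normalized counts (y axis, from 0) of 15 proteasome genes and the core assembly factor Pomp in each library, with untreated libraries in grey, genistein libraries in orange and a line at the mean of each pair. Groups are separated in Psma5, Psmd12 and Psme3 and lie close together in Psme1, Psme2 and Psmf1.

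Of the 6 genes of activators and the inhibitor, 2 fell and 4 did not pass the test, with a median of -0.06. This share, 33.3%, is near the 38.2% of all genes tested that fell. Psme3 (chr11:101316213-101323537), the nuclear activator that binds the core without ubiquitin, had the largest decrease of all members, from 3328 and 3209 to 1652 and 1559 (log2 fold change -1.02 ± 0.04, SE, edgeR adjusted p = 2.1e-12). The related interferon-inducible activator is built from Psme1 and Psme2, and neither passed the test. Psme1 had 1216 and 1231 in untreated and 1188 and 1172 in genistein libraries (-0.05 ± 0.05, edgeR adjusted p = 0.35). Psme2 had 632 and 585 against 634 and 634 (0.06 ± 0.06, edgeR adjusted p = 0.43). Psme2b is 99.4% identical to Psme2 over 794 bases, so their reads may be divided between them, and with both added the log2 fold change was -0.02. Psme2b itself had 1106 and 1032 against 1032 and 1017 (-0.06 ± 0.05, edgeR adjusted p = 0.32). Psme4, a large activator that caps the core in the nucleus, went from 6302 and 6538 to 5645 and 5979 (-0.14 ± 0.04, edgeR adjusted p = 1.7e-03), but scaled by library totals alone it was no longer called (-0.07, edgeR adjusted p = 0.12). Psmf1, an inhibitor of the core, had 1089 and 966 against 997 and 988, so the groups overlapped (-0.05 ± 0.06, edgeR adjusted p = 0.46).

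Levels per kilobase of exon put these differences in proportion. Untreated cells had levels of 13.0 (Psma3) to 87.3 (Psma6) FPKM for the 14 constitutive core subunits, and genistein cells 7.89 (Psma3) to 59.8. The low end is uncertain, since reads of Psma3 may be divided with its identical copy Gm13835. The next lowest levels were those of Psma2 in untreated cells (35.8 FPKM) and Psma5 in genistein cells (22.1 FPKM). Relative to the sum of these 14 levels, the lid stood at 46.6% and 46.3% in untreated and 40.1% and 39.0% in genistein libraries. The ATPases of the base stood at 47.01% and 46.91% against 41.94% and 42.3%. The assembly factors stood at 11.8% and 11.9% of the core against 11.3% and 11.4%. Psme1, Psme2 and Psme2b together stood at 9.51% and 9.35% of the core in untreated and 13.7% and 13.4% in genistein libraries, and Psme3 at 4.81% and 4.79% against 3.60% and 3.36%. The level of Psme3 was 50.6% and 51.3% of the sum of Psme1, Psme2 and Psme2b in untreated libraries and 26.3% and 25.1% in genistein libraries. The sum with Psme2b depends on how reads were divided between it and Psme2, whose exon lengths are 837 and 1764 bases. In untreated cells Psme2b stood at 42.7 FPKM and Psme2 at 11.5 FPKM. All these ratios of levels are descriptions without a test.

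**Figure D4:**
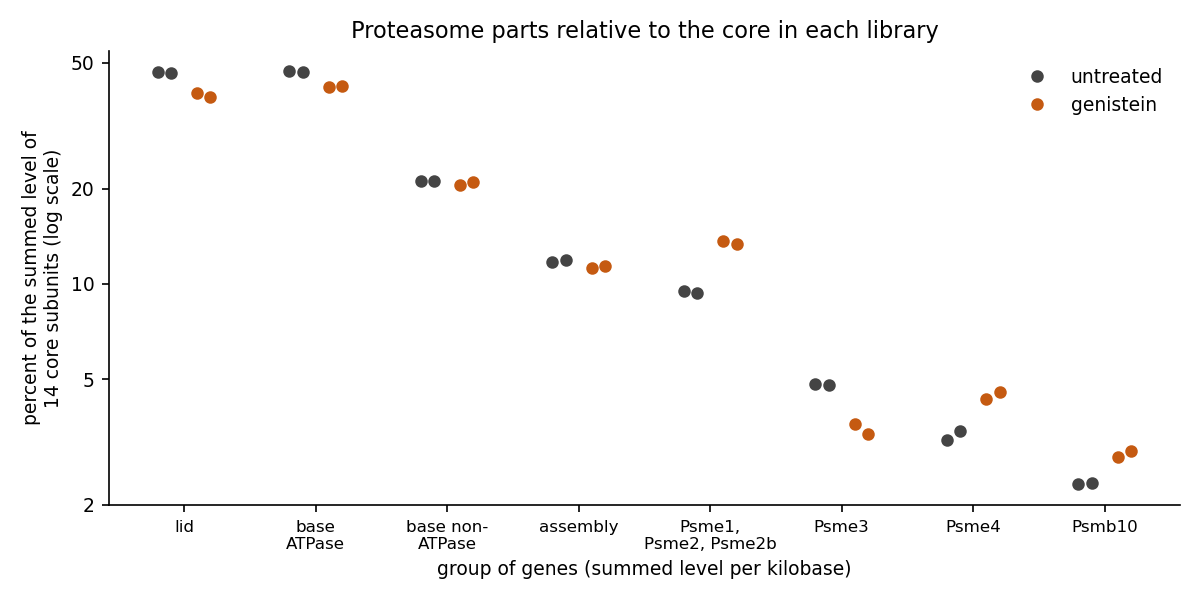
Summed level per kilobase of groups of proteasome genes as a percent of the summed level of the 14 constitutive core subunits (y axis, log scale), with 1 point per library, untreated in grey and genistein in orange. The lid, the base ATPases and Psme3 are lower relative to the core with genistein, and Psme1 with Psme2 and Psme2b, Psme4 and Psmb10 are higher.

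The assembly factors fell in 7 of 7 genes with a median of -0.64, beside 38.2% of all genes that fell. Psmg1 and Psmg2 form a chaperone pair that gathers the α subunits, and Psmg3 and Psmg4 form another. Psmg1 had normalized counts of 724 and 713 in untreated and 371 and 446 in genistein libraries (log2 fold change -0.82 ± 0.08, SE, edgeR adjusted p = 7.6e-08). Psmg2 had 949 and 889 against 599 and 579 (-0.64 ± 0.06, edgeR adjusted p = 7.6e-08). The partners of the other pair had the lowest counts of the assembly factors. Per kilobase of exon, Psmg4 was not low in untreated cells (19.7 FPKM, against 17.9 for Psmg1). Psmg3 had 440 and 454 against 262 and 251 (-0.80 ± 0.08, edgeR adjusted p = 1.8e-07), and Psmg4 had 323 and 330 against 194 and 178 (-0.81 ± 0.10, edgeR adjusted p = 1.1e-06). In all 4 genes both genistein libraries lay below both untreated libraries, as in 44.6% of all genes. The chaperones of the base, Psmd9, Psmd10 and Psmd5, had log2 fold changes of -0.52, -0.38 and -0.35. Exons of Psmd9 overlap those of Gm26745 on the opposite strand over 25.5% of their length, and the counter's strand setting was not stated, so its value is less certain. Psmc3ip, which is no proteasome component, had normalized counts of 490 and 469 against 347 and 381 (-0.40 ± 0.08, edgeR adjusted p = 1.9e-04) and shares 21.2% of its exon length with Mlx on the opposite strand.

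The proteasome works with proteins whose genes do not carry a Psm symbol, and 12 of these were tested. Of the 12, 9 fell and 2 rose, with a median log2 fold change of -0.38, beside 38.2% and 33.5% of all genes, and 56.1% and 29.8% of genes with a mean count above 1000. Uchl5, a deubiquitinase of the base, had normalized counts of 1293 and 1321 in untreated and 638 and 654 in genistein libraries (-1.02 ± 0.05, SE, edgeR adjusted p = 7.1e-11). Adrm1, the ubiquitin receptor that recruits Uchl5, had 1288 and 1311 against 760 and 712 (-0.82 ± 0.06, edgeR adjusted p = 1.2e-09). Txnl1, a thioredoxin-like protein bound to the regulatory particle, changed by -0.69 and Pomp, the maturation factor of the core, by -0.47. Zfand5, a proteasome-binding zinc finger protein, rose by 0.18 and its relative Zfand2a by 0.15 on the log2 scale. The call of Zfand2a was lost without untreated 1, untreated 2 or genistein 1, at an edgeR adjusted p of 0.067, 0.076 and 0.058 and a log2 fold change of 0.15, 0.14 and 0.15.

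Among 15 genes of the Nfe2l1 pathway, 7 rose and 5 fell, with a median of -0.00. These shares, 46.7% and 33.3%, stand beside 33.5% and 38.2% of all genes that rose and fell. Of genes with a mean count above 1000, 29.8% rose and 56.1% fell. Ufd1 and Syvn1 lost their calls in some alternatives, which left 5 to 7 genes higher. Nfe2l1 itself had normalized counts of 4053 and 3807 in untreated and 4969 and 4784 in genistein libraries (0.31 ± 0.04, SE, edgeR adjusted p = 1.2e-06), so its transcript was higher while those of the subunits were lower. Nfe2l2, the related factor of the oxidative stress response, had 2101 and 2032 against 2835 and 2772 (0.44 ± 0.04, edgeR adjusted p = 2.7e-08). Bach1, a repressor that binds the same elements, rose by 0.68, and Sel1l, a part of the machinery that extracts proteins from the endoplasmic reticulum, by 0.38. Vcp, the ATPase that extracts Nfe2l1 from the membrane, fell by 0.57, Maff, a small Maf partner, by 0.54 and Keap1, the adaptor that keeps Nfe2l2 low, by 0.46 on the log2 scale. Activity of these factors was not measured.

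Of 10 genes of ubiquitin, its activation and its shuttles, 7 fell and 2 rose, with a median of -0.34. All 10 had a mean count above 1000, and among all genes of that abundance 56.1% fell and 29.8% rose. Rps27a, a fusion of ubiquitin and a ribosomal protein, fell by 1.22, and the shuttle factor Ubqln4 by 0.85 on the log2 scale. In contrast Sqstm1, an autophagy receptor for ubiquitin chains, had normalized counts of 6233 and 6146 in untreated and 11603 and 11371 in genistein libraries (0.89 ± 0.04, SE, edgeR adjusted p = 1.1e-11). The shuttle factor Ubqln2 rose by 0.67. In Sqstm1 and Ubqln2 the genistein libraries lay above the untreated libraries, as in 40.7% of all genes. The COP9 signalosome is a relative of the lid, and 8 of its 9 genes fell while 0 rose (0 also at an unadjusted p under 0.05 and in DESeq2), with a median of -0.52. Over all genes tested 38.2% fell and 33.5% rose, and of those with a mean count above 1000, 56.1% and 29.8%. The largest decreases were those of Gps1 (-0.90), Cops3 (-0.68) and Cops8 (-0.66), and Cops6 did not pass the test (0.02 ± 0.04, edgeR adjusted p = 0.71).

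Genes of the interferon response and class I antigen presentation, which use peptides made by the proteasome, were mostly higher. Of 16 tested genes 12 rose and 1 fell, with a median of 0.65, beside 33.5% and 38.2% of all genes. In the alternatives 11 (DESeq2) to 15 (library totals) of them rose. Tap1, a subunit of the peptide transporter that is encoded next to Psmb9, had normalized counts of 93.9 and 103 in untreated and 568 and 539 in genistein libraries (2.495 ± 0.10, SE, edgeR adjusted p = 1.6e-12). Its exons overlap those of Psmb9 on the opposite strand over 5.79% of the length of Psmb9. Irf7 had 7.99 and 1.06 against 30.0 and 33.4 (2.74 ± 0.46, edgeR adjusted p = 5.3e-05) and Ifit1 had 3.996 and 2.12 against 15.0 and 23.3 (2.58 ± 0.51, edgeR adjusted p = 2.9e-04), both at few counts. With each library left out in turn, Irf7 ranged from 1.96 (without untreated 2) to 4.74 (without untreated 1) and Ifit1 from 2.21 (without untreated 2) to 3.09 (without untreated 1). B2m, the light chain of class I molecules, rose from 4153 and 3865 to 6311 and 6461 (0.67 ± 0.04, edgeR adjusted p = 7.6e-11). Erap1, a peptidase that trims these peptides, was the gene that fell (-0.18), and its call was lost without untreated 1 (-0.14, edgeR adjusted p = 0.11) or genistein 1 (-0.15, edgeR adjusted p = 0.0704). None of the tested interferon-inducible proteasome genes, Psmb10, Psme1 and Psme2, was called higher. Psmb8 and Psmb9 had too few counts to be tested.

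**Figure D5:**
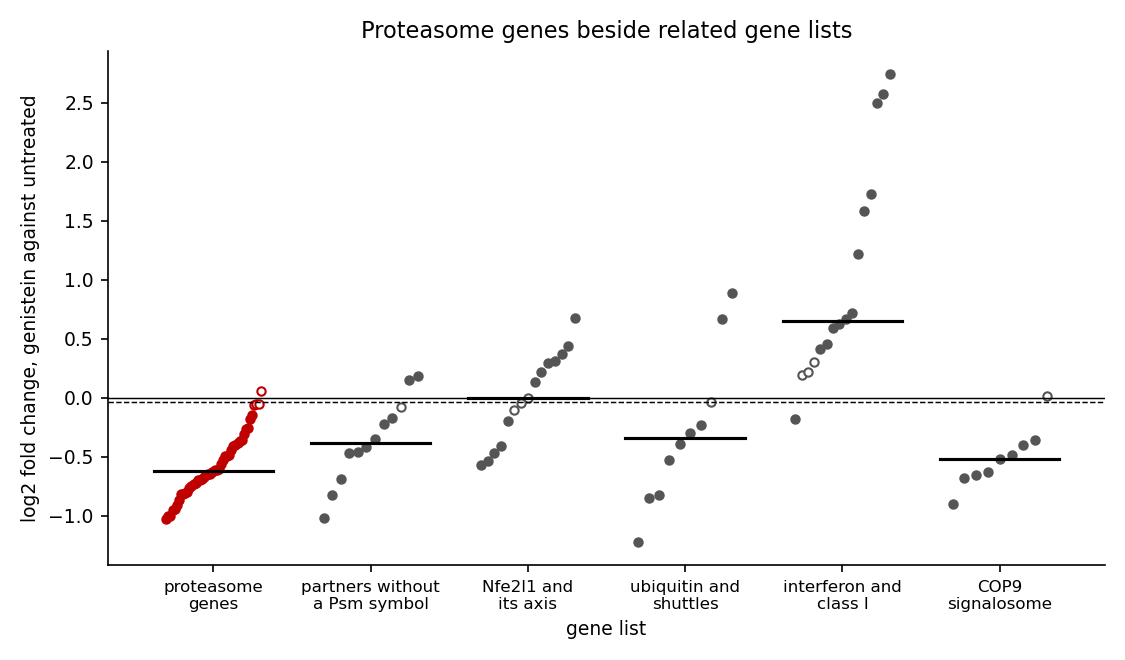
Log2 fold changes (y axis) of the 46 tested proteasome genes, counting Psmc3ip (red), and of the tested genes of each related list (grey), with 1 point per gene, open points for genes that did not pass the threshold, a bar at the median of each list and a dashed line at the median of all genes (-0.03). The medians are -0.62 for the proteasome genes, -0.52 for the COP9 signalosome and 0.65 for interferon and class I genes.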

How the data were processed

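The authors trimmed paired-end reads of ribosomal RNA-depleted, stranded total RNA libraries using Trim Galore, mapped them to mm10 (GRCm38) using STAR and obtained counts from TEtranscripts. The table deposited by the authors holds raw counts, whole numbers for each gene and repeat subfamily, and the counter's strand option is not given in the sources used here. Symbols matched 47224 of 47937 gene identifiers, and coordinates are those of GENCODE on GRCm38, counted from 1. The entry that names no feature held 0.00208% to 0.00314% of a library and was left out.

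Genes and repeats were fitted together in edgeR 4.0.16 (R 4.3.3) with filterByExpr, TMM scaling, the quasi-likelihood test and group as the only term, with Benjamini-Hochberg adjustment over 17358 entries. The standard error is the log2 fold change divided by the square root of F. Normalized counts were brought to the mean effective library size of the 4 libraries. FPKM and exon overlaps used the union of annotated exons of a later GENCODE release than the one the study counted with. Similar copies were found with blastn 2.17.0 (identity of at least 95% over at least 300 bases). Alternatives covered scaling, filtering, DESeq2 1.42.0, thresholds, a replicate block, leaving out each library and, added after seeing the data, the sum with similar copies and the study's thresholds under each setting.

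The members, classes, lists and tests were chosen with earlier results of these data known. In each class, up to 2 members with the largest change in each direction and a preset group of catalytic, receptor, activator and chaperone genes are given in full, and of each related list up to 3 genes in each direction and Nfe2l1 and Nfe2l2. Psmb1, Psmd8, Psmd11, Pomp, B2m, Cops6 and the genes with a similar copy were singled out after their values were seen. A listed partner without a matched identifier was not analysed here, and some genes of the ubiquitin list are not reported here.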

Additional observations from a re-analysis of the deposited data

How the results depend on the processing

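The count of 42 members that fell and 0 that rose was the same with RLE size factors, factors from gene rows, no filter, DESeq2, a stricter adjusted p of 0.01 and each library left out (42 to 42). With library totals 41 fell, since Psme4 was no longer called and 1 of the 6 activator and inhibitor genes fell in place of 2, and under the study's thresholds 3 fell (0 with library totals or factors from gene rows, 1 to 4 with each library left out). With a library left out, its group keeps 1 library, which is assumed to vary like those of the other group. The median of the members was -0.55 with library totals, -0.58 with factors from gene rows, -0.65 without a filter and -0.65 to -0.60 with each library left out. Library totals changed the split of all genes to 37.5% higher and 34.1% lower. Members stood 0.59 below the median of all genes on the log2 scale under each scaling. A scaling shifts all genes nearly alike, so this gap could not change and is no check of the result. With the replicate number as a block, 42 members fell with a median of -0.62, and it changed no member's call. The labels do not state that the numbers pair the samples. Across the tested entries, deviations of replicate 1 from its group mean had a correlation of -0.0265 between the 2 groups. In the list of partners 1 gene rose instead of 2 without a filter and in DESeq2 (1 to 2 with each library left out), since Zfand2a lost its call. In the interferon list 0 genes fell instead of 1 with library totals, with factors from gene rows and in DESeq2 (0 to 1 with each library left out), since Erap1 lost its call. Depth limits the values of Psmb8, Psmb9 and Psmb11, which had at most 15 counts in a library.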
